A study of Mus musculus with 8 samples.

Results

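The mouse miRNAs mmu-miR-125a-5p, mmu-miR-125b-5p, mmu-miR-99a-5p, mmu-miR-99b-5p and mmu-miR-100-5p, written below without their species prefix, were followed through 8 small RNA libraries. They were chosen by name, as the main arms of the miR-125, miR-99 and miR-100 hairpins, and are 5 of the 1978 mature miRNAs listed in the series. All 5 were listed in every table, with 1978 miRNAs in the C2C12 hairpin tables, 605 in the ATF4 table and 696 in the P19 table. All 5 passed the filter on low values (at least 1 CPM, counts scaled to the miRNA total of the library, or 1 RPM, the same quantity as the authors deposited it, in at least 1 of the libraries compared) in every comparison.

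The series asked how PERK, a sensor of the unfolded protein response, acts on miRNAs during myoblast differentiation. The C2C12 line of mouse skeletal myoblasts stably carried either a lentiviral shRNA that targets Perk (shPerk, called PERK knockdown cells) or the control shRNA (shNC). These cells were sampled at day 0, before induction, and at day 3 of culture in differentiation medium. C2C12 cells with an empty vector or with a vector for ATF4, the transcription factor downstream of PERK, were sampled in growth medium. P19 cells, a mouse embryonal carcinoma line, carried shNC or shPerk, and their induction state is not given in the sources used here. The C2C12 hairpin lines were selected with puromycin, so each is a stable selected line and not the parental one. ATF4 was driven by an EF1α promoter for stable expression. Whether the ATF4 and P19 cells were selected in the same way is not stated in the sources used here. Each condition was 1 library, which leaves every difference without a replicate check, and no p-value is given. Intervals are 95% intervals from the read counts. They hold only the error of counting, because 1 library a condition gives no spread between replicates. Molecular identifiers are not mentioned in the sources used here, so PCR duplicates could make the intervals too narrow.

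Depth and identity were checked first. The count libraries held 8800977 to 11993448 miRNA reads. The 10 embryonic miRNAs of the miR-302 and miR-290 clusters summed to 214918 to 455351 RPM in P19 cells and to at most 0.618 CPM in C2C12 cells. The 4 muscle miRNAs (miR-1a, miR-133a, miR-133b and miR-206) summed to 2467 to 88480 CPM or RPM in C2C12 cells and to 34.5 and 96.9 RPM in P19 cells. miR-142a-3p, a miRNA of blood cells, had 1977 and 665 reads in the shPerk libraries at day 0 and day 3 against 28 and 60 reads in the shNC libraries, while miR-223-3p, the other blood cell marker, had at most 1 read in these 4 libraries. The part of these differences in the results below was not tested.

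A miRNA recognises its targets mainly through its seed, bases 2 to 8 from its 5′ end, so miRNAs with the same seed share many predicted targets. The miR-125 family is the vertebrate counterpart of worm lin-4, and in mammals its genes lie in clusters together with a let-7 gene and a miR-99 or miR-100 gene that can be transcribed as 1 long primary RNA. miR-125b restrains myoblast differentiation and is known to target Igf2, a growth factor of the muscle programme, while miR-99 and miR-100 are known to target Mtor and Igf1r. In embryonic cells LIN28 binds let-7 precursors and blocks their maturation.

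The mature sequences are shown because they set which members can act on the same targets and which can be confused in counting. They were taken from RefSeq on GRCm38.p6 and are written 5′ to 3′ with the seed in capitals. All 5 members were matched by name.
miR-99a-5p: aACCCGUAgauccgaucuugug
miR-100-5p: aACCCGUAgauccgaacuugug
miR-99b-5p: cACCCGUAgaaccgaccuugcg
miR-125b-5p: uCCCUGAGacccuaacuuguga
miR-125a-5p: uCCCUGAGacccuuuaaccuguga
miR-351-5p: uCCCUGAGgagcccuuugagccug
Among 1679 mature mouse miRNAs of that table, the seed of miR-99a-5p, miR-99b-5p and miR-100-5p occurred in these 3 only. The seed of the miR-125 members occurred in 5, the others being miR-351-5p, miR-6367 and miR-6394. miR-351-5p, from the X chromosome, is shown as the only one of those others that was read in these libraries. miR-6367 and miR-6394 had 0 reads in each of the 4 count libraries, a count that allows up to 3 reads, or 0.341 CPM in the shallowest, and neither was listed in the RPM tables.

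Counted from 1 at the 5′ end, miR-99a-5p and miR-100-5p differ by 1 substitution, U16A, with the base of miR-99a-5p first. miR-99a-5p and miR-99b-5p differ by 4, A1C, U11A, U16C and U21C. miR-125a-5p and miR-125b-5p share their first 13 bases. The rule by which a read with a mismatch was given to one of these names is not given in the sources used here, so reads of 1 member that were given to another could not be told apart.

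The genes form 3 clusters in the GENCODE annotation of GRCm38, the build named by the submitters. Mir99b (chr17:17830188-17830257), Mirlet7e (chr17:17830352-17830444) and Mir125a (chr17:17830812-17830879) lie on the plus strand within 692 bp, all in introns of Spaca6, with Mir125a also inside an annotated exon of it. Mir99a (chr16:77598936-77599000), Mirlet7c-1 (chr16:77599657-77599750) and Mir125b-2 (chr16:77646273-77646343) span 47408 bp in introns of the noncoding host gene Mir99ahg. Mir100 (chr9:41531425-41531504), Mirlet7a-2 (chr9:41536716-41536811) and Mir125b-1 (chr9:41581926-41582002) span 50578 bp in introns of the noncoding transcript 3110039I08Rik. Mature miR-125b-5p is identical from Mir125b-1 and Mir125b-2 and cannot be assigned to either, whereas their other arms differ and were counted apart.
miR-125b-1-3p: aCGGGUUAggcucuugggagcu
miR-125b-2-3p: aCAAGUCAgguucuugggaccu
These passenger arms are shown because they are the only reads that separate the chromosome 9 copy from the chromosome 16 copy.

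All 5 members were abundant in C2C12 cells, and together they took 4.28% to 9.59% of the miRNA reads of a C2C12 library. In the P19 libraries they took 1.52% in shNC cells and 0.797% in shPerk cells. The order was miR-125b-5p, then miR-99b-5p, in 5 of the 6 C2C12 libraries, with miR-100-5p or miR-99a-5p last. The shPerk library of day 3 was the exception, with miR-99a-5p first. In both P19 libraries the order was miR-99b-5p, miR-125a-5p, miR-125b-5p, miR-99a-5p and miR-100-5p, so the 2 members of the chromosome 17 cluster led there. The tables were normalized separately, so levels and shares set side by side across them are a description, and fold changes were computed only within a table.

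**Figure D1:**
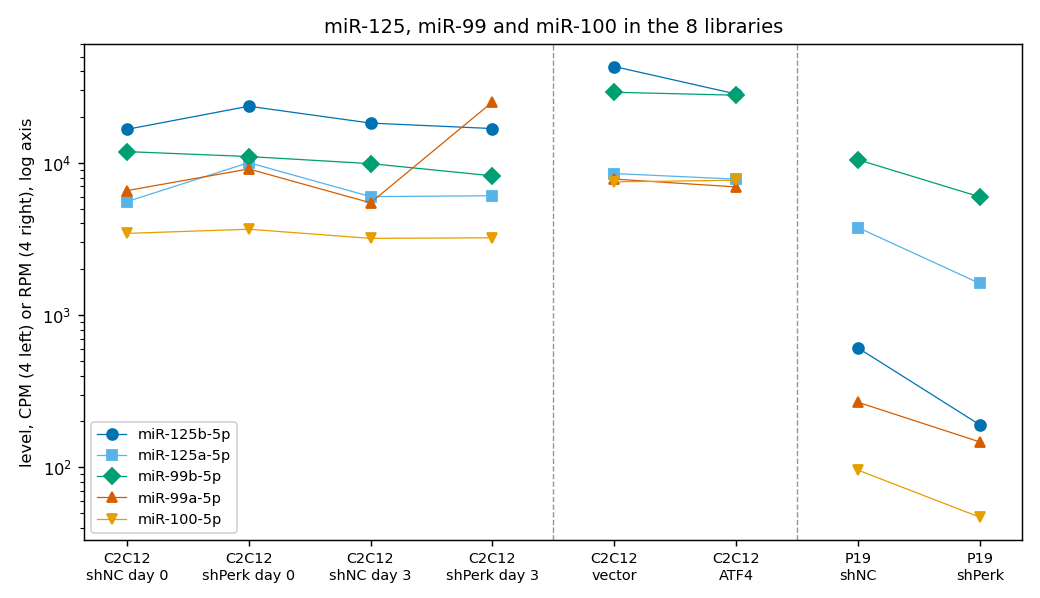
Level of each member in the 8 libraries on a log axis, in CPM for the 4 C2C12 hairpin libraries and in RPM for the ATF4 and P19 pairs, with dashed lines between the tables and thin lines joining libraries of a table as a guide. miR-99a-5p stands at 25112 CPM in shPerk cells at day 3 against 5466 to 9120 CPM in the other 3 hairpin libraries, and in P19 cells miR-99b-5p and miR-125a-5p lie above the other 3 members.

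miR-99a-5p showed the largest change. At day 0 it had 74391 reads with shNC and 80263 with shPerk, and at day 3 it had 65551 with shNC and 236763 with shPerk. Per total miRNA reads the shPerk library of day 3 was high, with 25112 CPM. The other 3 had 6571 (shNC day 0), 9120 (shPerk day 0) and 5466 CPM (shNC day 3). Between shNC and shPerk cells the log2 fold change, scaled with the TMM factors of edgeR, was 0.61 at day 0 (95% interval 0.59 to 0.62) and 2.53 at day 3 (95% interval 2.52 to 2.55), a 5.79-fold higher level at day 3. It was 1 of 5 members past 2-fold at day 3, where 44.9% of the 575 miRNAs kept were past 2-fold and 21.9% were past it upwards. miR-99a-5p ranked 44 of 575 from the highest change. Its scaled level in shNC cells was the same at both days, with 1.4e-06 on the log2 scale (95% interval -0.015 to 0.015) and -0.27 to 0.092 under the other scalings and filters. In shPerk cells it rose by 1.82 (95% interval 1.81 to 1.83), the only member past 2-fold there, where 33.9% of 573 miRNAs were. The knockdown effect at day 3 minus that at day 0 was 1.89 on the log2 scale (95% interval 1.87 to 1.91), rank 24 of 544 miRNAs, against a median of 0.042 over those miRNAs.

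The rest of the miR-99a cluster and its nearest relative did not show a rise of this size. miR-99a-3p, the passenger arm of the same hairpin, was read 37, 33, 31 and 29 times in shNC day 0, shPerk day 0, shNC day 3 and shPerk day 3. Its 4 counts lay close together, and its reads allow a log2 fold change at day 3 between -0.20 and 1.36. Free of any library scaling, miR-99a-5p exceeded miR-99a-3p by 1.95 on the log2 scale in the change at day 3 (95% interval 1.22 to 2.68), and the ratio of the arms went from 2115 in shNC cells to 8164 in shPerk cells. Such a shift between arms was not rare in this pair: of 115 hairpins with at least 20 reads of both arms in both libraries, 36 (31.3%) shifted by more than 2-fold, and miR-99a ranked 4 by size. At day 0 the share was 7.26% of 124 hairpins and the arms of miR-99a differed by 0.27 (95% interval -0.40 to 0.95).

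let-7c-5p, from Mirlet7c-1 and from a copy on chromosome 15, had 580935, 541862, 595368 and 549106 reads in the same order. Its log2 fold change on knockdown was 0.40 at day 0 and 0.56 at day 3 (95% interval 0.56 to 0.57). let-7c-1-3p, which comes from the chromosome 16 gene alone, had 409, 546, 285 and 253 reads, or 36.1, 62.0, 23.8 and 26.8 CPM. It was highest in shPerk cells at day 0, and its log2 fold change on knockdown was 0.91 at day 0 and 0.51 at day 3 (95% interval 0.26 to 0.76). miR-125b-2-3p had 951, 918, 815 and 976 reads, with log2 fold changes on knockdown of 0.45 at day 0 and 0.94 at day 3 (95% interval 0.80 to 1.08). At day 3 the change of miR-99a-5p exceeded that of let-7c-5p by 1.97, that of let-7c-1-3p by 2.02 and that of miR-125b-2-3p by 1.59 (95% interval 1.46 to 1.73). miR-100-5p, with 1 base different, had 38939, 32242, 38257 and 30332 reads, and miR-99a-5p exceeded its change at day 3 by 2.19 (95% interval 2.16 to 2.21). The muscle miRNAs moved in the same pair, with a sum of 88480 CPM in shNC cells and 24312 CPM in shPerk cells at day 3, and their part in the result was not tested.

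**Figure D2:**
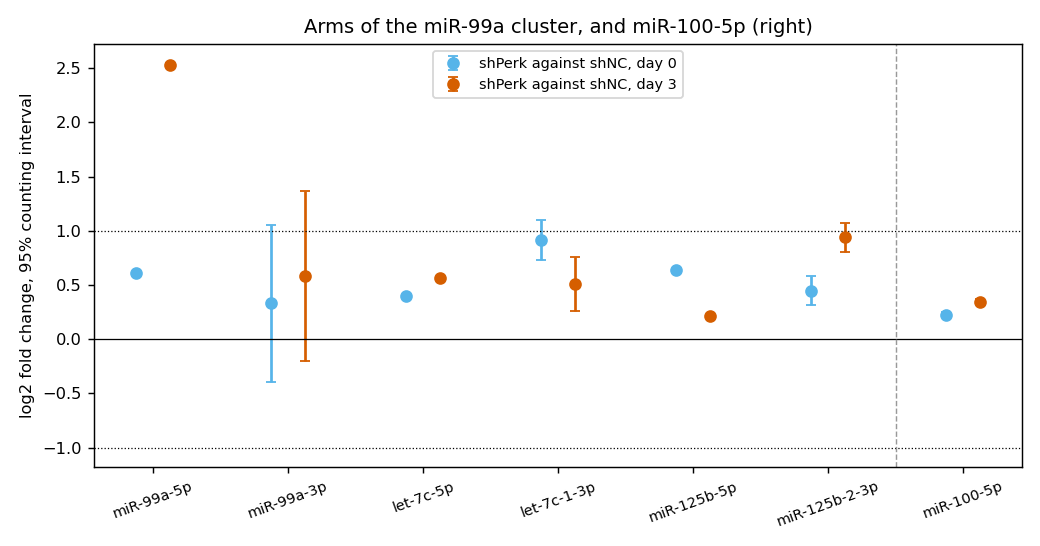
Log2 fold change of shPerk against shNC cells at day 0 and day 3 for the arms of the 3 hairpins of the miR-99a cluster and for miR-100-5p, with TMM scaling and 95% counting intervals as bars, most of them smaller than the point, and dotted lines at 2-fold. miR-99a-5p stands at 2.53 at day 3, while the other arms and miR-100-5p lie between 0.21 and 0.94 at that day.

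miR-125b-5p, the most abundant member in 5 of the 6 C2C12 libraries, had 188029 and 207434 reads in shNC and shPerk cells at day 0, and 219017 and 158489 reads at day 3. The shPerk library was the higher at day 0 and the lower in reads at day 3. Its log2 fold change on knockdown was 0.64 at day 0 (95% interval 0.63 to 0.65) and 0.21 at day 3 (95% interval 0.20 to 0.22), and the day 3 value turned to -0.12 with total miRNA reads as the scale. In differentiation it was higher by 0.40 in shNC cells (95% interval 0.39 to 0.41) and differed by -0.13 in shPerk cells (95% interval -0.14 to -0.12). The knockdown effect at day 3 minus that at day 0 was -0.46 (95% interval -0.47 to -0.45).

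The other arms separated the copies of miR-125b. miR-125b-1-3p, from chromosome 9, had 17827, 15631, 8763 and 6621 reads in shNC day 0, shPerk day 0, shNC day 3 and shPerk day 3. Both day 3 libraries were lower than both day 0 libraries. Its log2 fold change from day 0 to day 3 was -0.84 in shNC cells (95% interval -0.88 to -0.81) and -0.98 in shPerk cells (95% interval -1.02 to -0.94). miR-125b-2-3p, from chromosome 16, differed by -0.040 (95% interval -0.18 to 0.096) and by 0.35 (95% interval 0.22 to 0.48) in the same comparisons. The ratio of miR-125b-1-3p to miR-125b-2-3p therefore went from 18.7 to 10.8 in shNC cells and from 17.03 to 6.78 in shPerk cells, and it was 55.9 and 59.1 in the vector and ATF4 libraries. Mature miR-125b-5p did not follow the chromosome 9 arm: in shNC cells its change exceeded that of miR-125b-1-3p by 1.24 (95% interval 1.21 to 1.28).

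miR-125a-5p, which shares the seed of miR-125b-5p, had 62961 and 88308 reads in shNC and shPerk cells at day 0 and 71987 and 57316 reads at day 3. The shPerk library of day 0 stood above the other 3. Its log2 fold change on knockdown was 0.98 at day 0 (95% interval 0.97 to 0.9997), just under the 2-fold limit, and 0.35 at day 3 (95% interval 0.34 to 0.37). No member was past 2-fold at day 0, where 35.9% of 602 miRNAs were, and miR-125a-5p moved past the limit, to 1.04, when libraries were scaled by the median of ratios. From day 0 to day 3 it was higher by 0.38 in shNC cells (95% interval 0.36 to 0.39) and differed by -0.36 in shPerk cells (95% interval -0.38 to -0.35). The knockdown effect at day 3 minus that at day 0 was -0.67 (95% interval -0.69 to -0.65). Its passenger arm miR-125a-3p had 1029, 1217, 727 and 553 reads in the order used above, highest in the same library.

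miR-99b-5p, from the same gene cluster as miR-125a-5p, had the smallest log2 fold changes on knockdown in C2C12 cells with TMM scaling, an order that does not hold with total miRNA reads as the scale. It had 134281 and 96852 reads in shNC and shPerk cells at day 0 and 118572 and 77487 reads at day 3. The shPerk libraries held fewer reads than the shNC libraries on both days, and also fewer per total, with 11860 and 11005 CPM at day 0 and 9886 and 8219 CPM at day 3. Its log2 fold change on knockdown was 0.025 at day 0 (95% interval 0.014 to 0.037) and 0.066 at day 3 (95% interval 0.053 to 0.079), and both turned negative, to -0.11 and -0.27, with total miRNA reads as the scale. Within the cluster, miR-125a-5p exceeded miR-99b-5p by 0.96 in the change at day 0 (95% interval 0.94 to 0.98) and by 0.28 at day 3 (95% interval 0.26 to 0.31), and let-7e-5p, the hairpin between them, exceeded it by 0.56 and 0.26. The ratio of miR-99b-5p to miR-125a-5p was 2.13 in shNC cells and 1.10 in shPerk cells at day 0, and 1.65 and 1.35 at day 3.

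The arms of miR-99b also changed by different amounts. miR-99b-3p had 10142, 5396, 7296 and 3256 reads in shNC day 0, shPerk day 0, shNC day 3 and shPerk day 3. It was lower in shPerk cells on both days, with log2 fold changes of -0.41 (95% interval -0.46 to -0.37) and -0.48 (95% interval -0.54 to -0.42). The ratio of miR-99b-5p to miR-99b-3p was 13.2 in shNC and 17.9 in shPerk cells at day 0, and 16.3 and 23.8 at day 3. It was also higher in the ATF4 library than in the vector library (18.7 against 14.4) and in P19 shPerk than in P19 shNC cells (18.2 against 14.7). Such shifts were ordinary in size. Among hairpins with at least 20 reads of both arms, miR-99b ranked 56 of 124 on knockdown at day 0 and 68 of 115 at day 3. For the ATF4 and P19 pairs no such ranking was made.

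miR-100-5p was the least abundant member in the hairpin libraries and the steadiest in CPM, with 3190 to 3663 CPM, a highest to lowest ratio of 1.15. With TMM scaling miR-99b-5p changed less on knockdown, by 0.025 at day 0 and 0.066 at day 3. The log2 fold change of miR-100-5p on knockdown was 0.22 at day 0 (95% interval 0.20 to 0.25) and 0.35 at day 3 (95% interval 0.32 to 0.37). In differentiation it differed by 0.16 in shNC cells and by 0.17 in shPerk cells. Its passenger arm miR-100-3p had only 66, 45, 44 and 23 reads, and the intervals of its knockdown changes held 0 on both days.

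In normal differentiation (shNC cells) none of the 5 members was past 2-fold, where 29.0% of 593 miRNAs were. Their median log2 fold change was 0.16, against -0.040 over all miRNAs kept. On knockdown the medians of the 5 members were 0.61 at day 0 and 0.35 at day 3, against -0.056 and 0.012 over all miRNAs kept. The 6 let-7 arms of the same clusters had medians of 0.66 and 0.37 in these comparisons, with none past 2-fold.

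**Figure D3:**
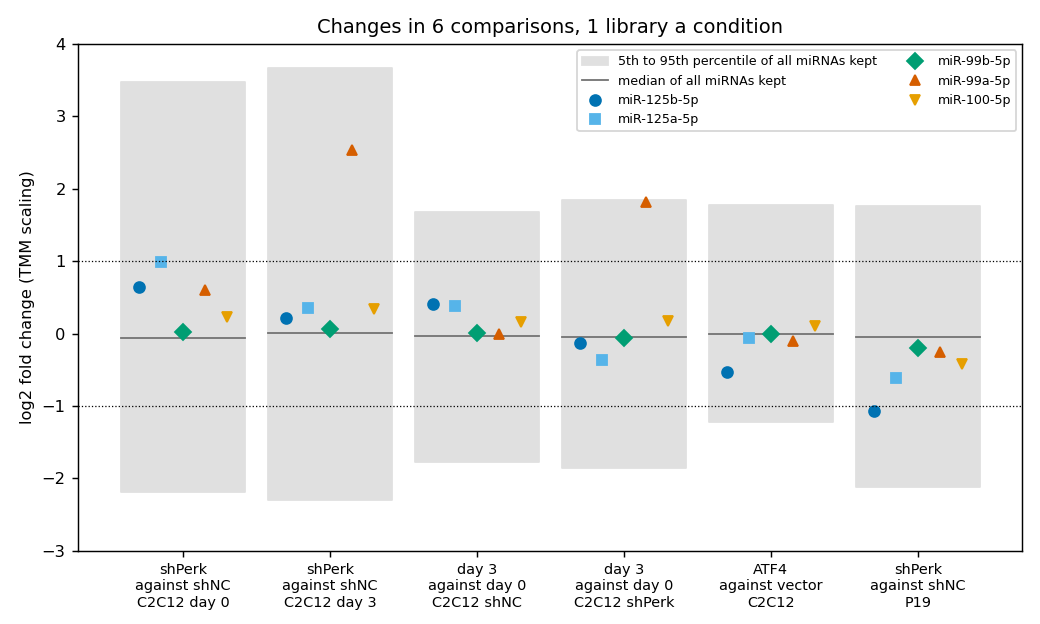
Log2 fold change of each member in the 6 comparisons with TMM scaling, where the grey bar spans the 5th to 95th percentile of all miRNAs kept, the grey line is their median and the dotted lines mark 2-fold. Of 30 points 3 lie past 2-fold, namely miR-99a-5p at 2.53 on knockdown at day 3 and 1.82 in differentiation of shPerk cells, and miR-125b-5p at -1.07 on knockdown in P19 cells.

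In the ATF4 pair, miR-125b-5p was the member that differed most. Its level was 42986 RPM with the vector and 28359 RPM with ATF4 (log2 fold change -0.54). Both of its passenger arms were lower by a like amount, miR-125b-1-3p with 4077 and 2786 RPM (log2 fold change -0.49) and miR-125b-2-3p with 73.0 and 47.1 RPM (log2 fold change -0.57). miR-99b-5p had 29115 and 27848 RPM, miR-125a-5p 8511 and 7816 RPM, miR-99a-5p 7824 and 6947 RPM, and miR-100-5p 7502 and 7688 RPM. These 4 members lay between -0.11 and 0.099 on the log2 scale. No member was past 2-fold, where 23.5% of 605 miRNAs were. The muscle miRNAs summed to 2467 RPM in the vector and 3790 RPM in the ATF4 library, and miR-122-5p, a miRNA of liver, had 79.7 and 26.1 RPM. For these markers, their part in the result was not tested. miR-99a-5p, the member with the rise in shPerk cells at day 3, differed by -0.11 here.

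In P19 cells every member was lower with shPerk than with shNC. miR-99b-5p had 10488 and 5979 RPM in shNC and shPerk cells, a log2 fold change of -0.21 after TMM scaling. miR-125a-5p had 3759 and 1611 RPM, a log2 fold change of -0.62. miR-125b-5p had 608 and 190 RPM, a log2 fold change of -1.07, the only member past 2-fold, where 35.3% of 696 miRNAs were and 17.7% were past it downwards.
miR-99a-5p had 267 and 147 RPM (log2 fold change -0.26) and miR-100-5p had 95.6 and 46.9 RPM (log2 fold change -0.42). The size of these values rested on the scaling. With the RPM values as deposited the 5 members differed by -0.81 to -1.68 on the log2 scale, 3 of them past 2-fold, and the median of all miRNAs moved from -0.044 to -0.65. The share of all miRNAs past 2-fold is not given on that scale. The embryonic marker miRNAs summed to 214918 RPM in shNC cells and 455351 RPM in shPerk cells. miR-124-3p, a miRNA of neurons, had 198 RPM in shNC and 29.6 RPM in shPerk cells, so it was lower with shPerk like the members. Of the other 3 markers of blood and liver cells only miR-122-5p was listed, with 4.67 and 10.6 RPM. For these markers, their part in the result was not tested. miR-125b-1-3p did not follow the mature miRNA, with 26.2 and 29.2 RPM.

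The ratio of a member to its let-7 partner needs no scaling between libraries. For miR-99b-5p, miR-125a-5p and miR-100-5p its ranges in the cell lines did not overlap. How many other miRNAs separate in this way over the same partners was not computed, so it is not shown to be particular to the members. The partners themselves were lower in P19 cells. let-7e-5p had at most 85.3 RPM in P19 and at least 2608 CPM in C2C12 cells, and let-7a-5p at most 112 RPM and at least 16615 CPM. miR-99b-5p over let-7e-5p was 2.78 to 5.60 in the 6 C2C12 libraries and 123.0 and 186 in the P19 libraries. miR-125a-5p over let-7e-5p was 1.57 to 2.53 in C2C12 cells and 44.1 and 50.2 in P19 cells. Within P19 shNC cells miR-99b-5p had 10488 RPM and let-7e-5p had 85.3 RPM. miR-100-5p over let-7a-5p was 0.14 to 0.37 in C2C12 cells and 0.86 and 1.09 in P19 cells. Mature let-7a-5p also comes from Mirlet7a-1 on chromosome 13, so this ratio does not describe the miR-100 cluster alone.

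For the ratios to let-7c-5p the ranges of the cell lines overlapped. Mature let-7c-5p and miR-125b-5p also come from genes on other chromosomes, so neither ratio describes the chromosome 16 cluster alone. miR-99a-5p over let-7c-5p was 0.11 to 0.15 in 5 C2C12 libraries, 0.43 in shPerk cells at day 3, and 1.15 and 0.37 in P19 shNC and shPerk cells. The P19 shPerk value thus lay below that of C2C12 shPerk cells at day 3. miR-125b-5p over let-7c-5p was 0.29 to 0.74 in C2C12 cells and 2.63 and 0.48 in P19 shNC and shPerk cells. In the P19 pair let-7c-5p rose from 231 to 399 RPM (log2 fold change 1.39), while let-7e-5p stood at 85.3 and 32.1 RPM and let-7a-5p at 112 and 43.1 RPM. The P19 libraries were also tabulated apart from those of C2C12 cells, and cell line and table cannot be told apart.

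**Figure D4:**
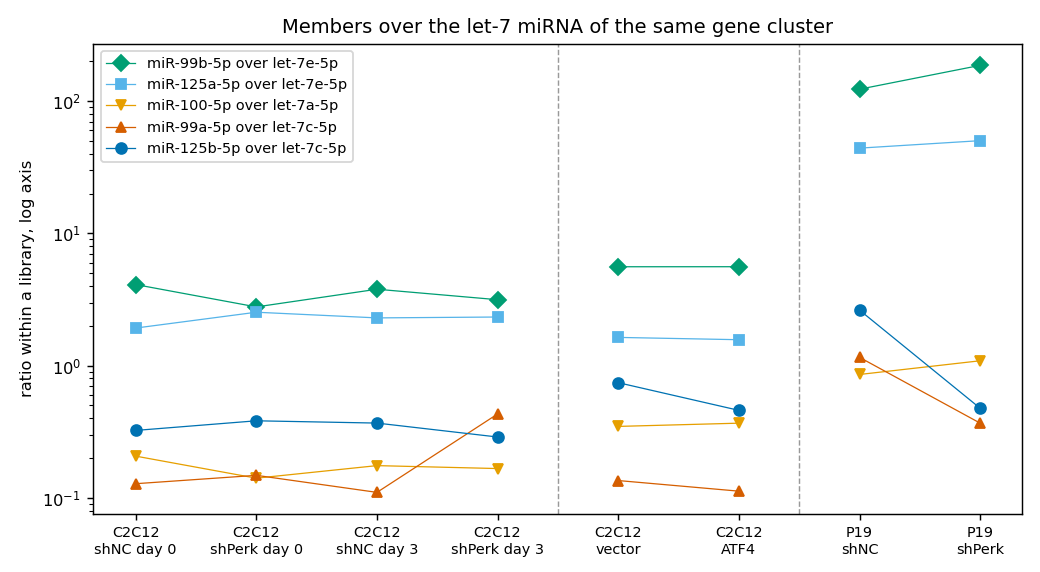
Ratio of each member to a let-7 miRNA encoded in its gene cluster within each library, on a log axis, with dashed lines between the tables and thin lines joining libraries of a table as a guide. Mature let-7a-5p, let-7c-5p and miR-125b-5p also come from genes outside the cluster. The ratios to let-7e-5p lie at 1.57 to 5.60 in C2C12 and at 44.1 to 186 in P19 libraries, and miR-99a-5p over let-7c-5p stands at 0.43 in C2C12 shPerk cells at day 3.

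Levels were also summed by seed. The miR-99 and miR-100 seed took 21870, 23788, 18542 and 36548 CPM in shNC day 0, shPerk day 0, shNC day 3 and shPerk day 3, and miR-99a-5p made up 30.0%, 38.3%, 29.5% and 68.7% of it. On knockdown at day 3 the sum changed by 0.98 on the log2 scale with total miRNA reads and by 1.31 with TMM factors. Without miR-99a-5p it changed by -0.19 and by 0.14, so the direction of that remainder turned with the scaling. The miR-125 seed took 23980, 34643, 28040 and 23403 CPM in the same order. miR-351-5p contributed 7.56%, 3.00%, 13.5% and 2.19% of it, and its share at day 3 was smaller in shPerk than in shNC cells. The direction of the change of this sum on knockdown at day 3 turned with the scaling, with -0.26 on the log2 scale for total miRNA reads and 0.072 for TMM factors. miR-125a-5p and miR-125b-5p alone changed by -0.084 and 0.25. In the ATF4 pair the miR-125 seed took 52292 RPM in the vector and 37082 RPM in the ATF4 library. In P19 cells it took 4590 and 1888 RPM in shNC and shPerk cells, and the miR-99 and miR-100 seed took 10851 and 6172 RPM.

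**Figure D5:**
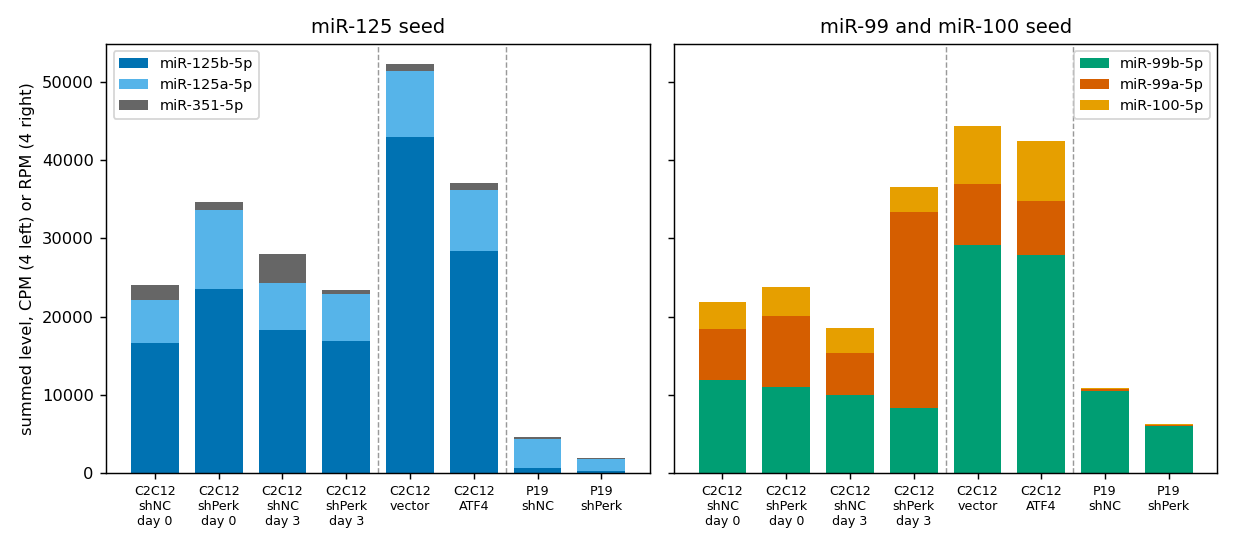
Stacked levels of the miRNAs with the miR-125 seed (left) and with the miR-99 and miR-100 seed (right) in the 8 libraries, in CPM or RPM, with dashed lines between the tables. miR-99a-5p fills 68.7% of the right-hand bar of C2C12 shPerk cells at day 3, and miR-351-5p is largest, 13.5% of the left-hand bar, in shNC cells at day 3.

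The miRNAs most like each member across the 8 libraries were found among 223 miRNAs with at least 10 CPM or RPM in every library, by the root mean square difference of log2 values centred within each table. miR-125a-5p was closest to let-7a-5p (0.088), let-7e-5p (0.11) and miR-125b-5p (0.20). miR-125b-5p was closest to let-7e-5p (0.17), let-7a-5p (0.17) and miR-125a-5p (0.20). miR-99b-5p was closest to let-7g-5p (0.088), miR-674-5p (0.12) and miR-100-5p (0.12), and miR-100-5p to miR-22-3p (0.11), miR-99b-5p (0.12) and miR-155-5p (0.14). For these 4 members the median difference over the other miRNAs was 0.45 to 0.60. miR-99a-5p stood apart, with miR-22-5p (0.31), miR-24-3p (0.36) and miR-132-5p (0.36) as the closest and the other 4 members at 0.62 to 0.72, against a median of 0.79. These distances are descriptions over 8 libraries that share tables and scaling.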

How the data were processed

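The 8 samples gave 1 small RNA library each. A company ligated linkers, amplified and gel-selected the product, and annotated the reads with bowtie, whose version and rule for ambiguous reads are not given in the sources used here. The authors deposited raw counts of reads per mature miRNA for the 4 C2C12 hairpin libraries, with libraries shared between tables repeated identically. For the ATF4 and P19 pairs the authors deposited RPM values, with values under 1 RPM listed at 0. The deposited fold changes, p-values and q-values were not used. The low RPM values lie on steps worth about 10.6 (vector), 12.2 (ATF4), 7.92 (P19 shNC) and 4.46 (P19 shPerk) reads per RPM, which gives relative depth only, so no counting interval is given for these pairs.

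The members and lists were chosen with earlier results of these data known. By the naming rule, the 5 members were given beside the other arms of their hairpins, the let-7 arms of the same clusters, miRNAs with the same seed and the 3 miRNAs of most similar pattern. For each pair of libraries, miRNAs with at least 1 CPM or RPM in 1 library were kept, and log2 fold changes used TMM factors and the default prior count of edgeR 4.0.16 (R 4.3.3). In RPM tables the factors were computed on RPM, with values at 0 set to 1 RPM. A miRNA was called past 2-fold at a log2 fold change beyond 1. Intervals are 95% Clopper-Pearson, or normal on the log scale for differences between changes. The knockdown effect at day 3 minus day 0 used TMM factors over the 4 count libraries. The fold changes and intervals were tried on simulated data with counting error alone and as many changes up as down. Such data hold no spread between replicates and no PCR duplicates, so they do not show how well the intervals cover here. Gene positions came from GENCODE M21 on GRCm38, and sequences and seeds from RefSeq. Alternatives were other scalings, filters, a prior count of 2 or a pseudocount of 1 RPM, a limit of 1.5-fold, and sums of both arms. Python 3.11.15 with pandas 2.3.3, scipy 1.17.1 and matplotlib 3.10.9 was used. Small RNA libraries do not measure the Perk and Atf4 mRNAs, and neither knockdown nor overexpression could be checked in them. The paper reports western blots for the PERK knockdown in both cell lines, and RT-qPCR and western blot for ATF4 overexpression.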

Additional observations from a re-analysis of the deposited data

Results flagged for a closer look

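miR-99a-5p was noted because its change on knockdown differed between the days of differentiation in C2C12 cells, by 1.89 on the log2 scale (day 3 minus day 0), with a counting interval that excludes 0. The intervals of miR-125a-5p, miR-125b-5p and miR-100-5p excluded 0 as well, so the interval alone does not set miR-99a-5p apart. The other 4 members differed by -0.67 to 0.086 in the same measure. The difference rests on 4 libraries, 1 of each condition, and was not tested against replicates.

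All 5 members were noted because the knockdown effect had the opposite direction in P19 cells from that on both days in C2C12 cells. The log2 fold changes in P19 cells were -0.21 for miR-99b-5p, -0.62 for miR-125a-5p, -0.26 for miR-99a-5p, -0.42 for miR-100-5p and -1.07 for miR-125b-5p. The difference between the cell lines was not tested. The share of all miRNAs with opposite directions in this sense was not computed, so the pattern is not shown to be particular to the members. For miR-99b-5p on both days and for miR-125b-5p at day 3 the C2C12 value itself turned negative when the total of the miRNA reads was the scale.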

How the results depend on the processing

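No paired analysis was possible because each condition had 1 library. With 1 library a condition none of the values could be recomputed without a replicate. Of 230 fold changes of the members recomputed under other scalings, filters and prior counts, 205 kept their direction, and the 25 that did not belonged to values of at most 0.21 on the log2 scale. The scaling moved a member by at most 0.38 in C2C12 pairs and 0.61 in the P19 pair. The rise of miR-99a-5p at day 3 lay between 2.20 and 2.53 and the P19 value of miR-125b-5p between -1.68 and -1.01. At day 0 the count of members past the limit on knockdown was 0, and it became 1 with the median of ratios, 1 with no filter on low values and 3 at a limit of 1.5-fold. In P19 cells it was 1, and became 3 with the total of the miRNA reads and 2 at 1.5-fold. The share of all miRNAs past the limit is not given for these other settings, so these counts stand without a background. The knockdown effect at day 3 minus day 0 is given in the order miR-99b-5p, miR-125a-5p, miR-99a-5p, miR-100-5p and miR-125b-5p. It was -0.16, -0.83, 1.73, -0.079 and -0.62 with the total of the miRNA reads. It was -0.095, -0.77, 1.79, -0.016 and -0.56 with upper-quartile factors. It was -0.070, -0.74, 1.82, 0.010 and -0.54 with the median of ratios. It was 0.041, -0.63, 1.93, 0.12 and -0.43 with TMM factors of each pair of libraries. A scaling shifts all members alike, which is how these values move. Of 18 changes in the ratio of cluster members, 2 were past 2-fold, and 2 with both arms summed. Both were of miR-99a over miR-125b, at 2.32 and 1.95 for the main arms, and both used the shPerk library of day 3. The share among other pairs of miRNAs was not computed. Mature miR-125b-5p was used for both of the clusters that encode it. Depth limits miR-99a-3p, miR-100-3p and let-7a-2-3p, with under 100 reads a library.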
